A study of Mus musculus with 5 samples.

Results

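The genes described here encode the protein subunits of the mitochondrial machinery for oxidative phosphorylation (OXPHOS): complex I, complex III, complex IV and complex V, the ATP synthase. They were taken from the count table by symbol, as every gene starting with mt-Nd, mt-Co, mt-Atp, mt-Cytb, Ndufa, Ndufb, Ndufc, Ndufs, Ndufv, Uqcr, Cox4i, Cox5, Cox6, Cox7, Cox8 or Atp5, leaving out the Ndufaf assembly factors. This gave 93 of 18767 genes, of which 80 are encoded in the nucleus and 13 in the mitochondrial genome (symbols starting with mt-). No expression value entered the choice. The nuclear members were 39 genes of complex I, 8 of complex III, 16 of complex IV and 17 of complex V, and the mitochondrial members were 7, 1, 3 and 2 of the same complexes.

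CD45+ cells, that is cells of the blood lineage, were sorted live from the thyroids of NOD.WT mice, an inbred strain prone to autoimmune disease, and sequenced as single cells with the 10x Genomics 5' method. Mice of both sexes, 4 to 6 weeks old at the start, received antibodies into the peritoneum 2 times a week for 4 weeks. The immune checkpoint inhibitor (ICI) group of 16 mice received anti-PD-1 (clone RPM1-14) with anti-CTLA-4 (clone 9D9) at 10 mg/kg per dose, and the isotype group of 10 mice received control antibodies (clones 2A3 and MPC11). The ICI samples came as 4 libraries and the isotype samples as 1, from pooled mice. The titles of ICI 1 to 3 form a series, and that of ICI 4 stands apart from it. Whether ICI 4 and isotype were prepared apart from ICI 1 to 3 is not in the labels. A difference between these sets of libraries cannot be told apart from treatment where ICI 1 to 3 enter. The cells of ICI 4 carry 2 barcode endings (2419 and 2599 cells). Thyroids were perfused and collagenase-digested in both groups. The number of mice behind each library is not in the labels, nor whether the 4 ICI libraries are separate pools of mice or splits of the same pool, so an SD over them may be technical.

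Electrons enter the respiratory chain at complex I and, by way of complex II, are passed on by complex III and cytochrome c to complex IV, which reduces oxygen. The proton gradient built along the way drives ATP synthesis by complex V. Most subunits are read from nuclear genes and imported, while a small core set is read from the mitochondrial genome, so each complex except complex II needs transcripts of both origins. In lymphocytes, respiration supports naive, memory and dividing cells, and glycolysis is added when cells are activated.

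The ICI libraries held 1523, 1219, 1163 and 5018 cells and between 3858251 and 32296759 UMIs (unique molecular identifiers, 1 per captured transcript), and the isotype library held 1352 cells and 8130081 UMIs. Median depth was 1753 UMIs per cell in ICI 1 and between 2844 and 4321 in the other libraries. Cells with at least 10% mitochondrial UMIs made up 4.92% of ICI 1 and at most 0.492% of any other library. Ptprc, the gene for CD45, had at least 1 UMI in 100% of cells in ICI 4 and isotype and in 92.3%, 84.2% and 82.1% of cells in ICI 1 to 3. ICI 2 and ICI 3 shared 140 cell barcodes, against at most 12 for any other pair of libraries. Genes of thyroid, parathyroid and epithelium summed to 1062 CPM (UMI counts scaled to an equal library total) in isotype and to 25.1 to 133 CPM in the ICI libraries. Cells were kept in the authors' 17 clusters, and a name ending in "-like" rests on marker genes (clusters 3, 9, 12, 13 and 15 keep their numbers only).

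The nuclear members together took a smaller share of transcripts in every ICI library than in the isotype library. Their 80 genes held 1.85%, 1.93%, 2.09% and 2.41% of all UMIs in ICI 1 to 4 and 2.61% in isotype (95% interval 2.60 to 2.62, counting error only). The ICI mean was 2.07% ± 0.248 (SD, n = 4), 0.544 percentage points under isotype. The ICI libraries did not overlap isotype, and ICI 4 lay closest to it. Because cells were summed, a different mix of cell types and a different amount per cell cannot be told apart in this value. ICI 1 to 3 also differed from ICI 4 and isotype in Ptprc detection (82.1% to 92.3% of cells against 100%). The part of such differences between libraries in the nuclear share was not tested. The difference of ICI 4 alone from isotype was -0.201 points.

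Each nuclear complex showed the same order. Complex I genes held 0.555%, 0.596%, 0.656% and 0.740% of UMIs in ICI 1 to 4 against 0.814% in isotype. Complex III genes held 0.184%, 0.186%, 0.198% and 0.224% against 0.239%. Complex IV genes held 0.443%, 0.474%, 0.514% and 0.568% against 0.620%. Complex V genes, at 0.672%, 0.669%, 0.718% and 0.880% against 0.940%, differed from that order only in that ICI 2 lay just under ICI 1. The makeup of the nuclear sum varied little: complex I made up 29.9% to 31.5% of it and complex V 34.4% to 36.5% over the 5 libraries.

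The 13 mitochondrial members did not follow the nuclear ones. Their share of UMIs was 2.66%, 1.24%, 1.31% and 1.68% over ICI 1 to 4 against 1.44% for isotype (95% interval 1.43 to 1.45). Isotype thus lay among the ICI values, below ICI 1 and ICI 4 and above ICI 2 and ICI 3. The ICI mean of 1.72% ± 0.652 (SD, n = 4) was 0.282 points above isotype, less than the spread between ICI libraries, and without ICI 1 the difference was -0.0291 points. The ratio of mitochondrial to nuclear UMIs of these genes was 1.43, 0.646, 0.627 and 0.698 in ICI 1 to 4 and 0.552 in isotype, higher in 4 of 4 ICI libraries.

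**Figure D1:**
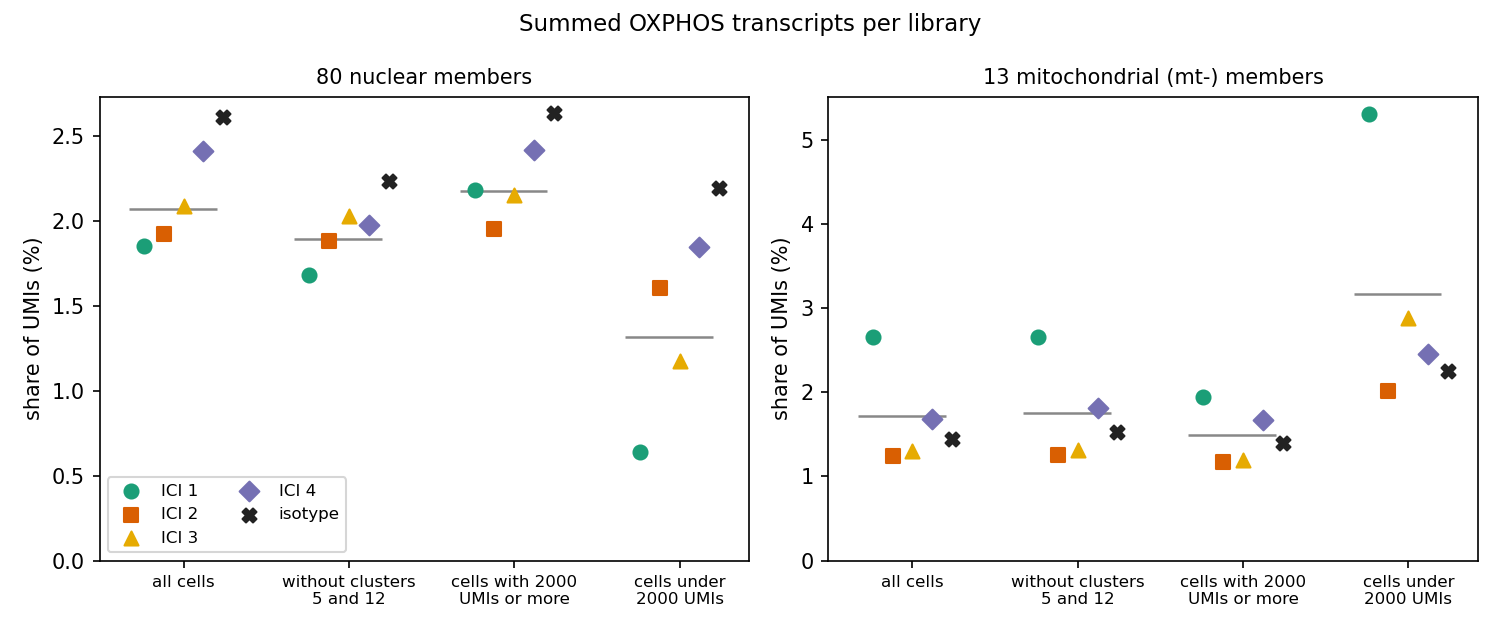
Share of all UMIs (percent, linear axis from 0) held by the 80 nuclear members (left) and the 13 mitochondrial members (right) in each of the 5 libraries, for all cells and 3 subsets of cells; grey lines are means over the 4 ICI libraries. The isotype library (cross) is the highest of the nuclear values in each subset, while its mitochondrial value of 1.44% in all cells lies between ICI libraries at 1.24% and 2.66%.

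The nuclear difference was also present in subsets of cells. Without cycling-like cluster 5 the nuclear share was 1.74%, 1.89%, 2.05% and 2.07% in ICI 1 to 4 and 2.28% in isotype. In cells with at least 2000 UMIs outside clusters 5 and 12, it was 2.02%, 1.91%, 2.09% and 1.98% against 2.24%, a difference of -0.235 points with an SD of 0.0788 between the ICI libraries. All 4 ICI libraries lay below isotype in both subsets. ICI 4 was the nearest to isotype in the first and ICI 3 in the second. In cells with 8000 UMIs or more, over all clusters, the share was 2.59%, 2.26%, 2.35% and 2.86% against 2.83%, so ICI 4 lay above isotype. At that depth outside clusters 5, 12 and 13, all 4 ICI libraries lay below it. Shallow cells stood further apart: under 2000 UMIs the share was 0.637%, 1.60%, 1.17% and 1.85% against 2.20%. Their mitochondrial share was 5.31%, 2.02%, 2.88% and 2.45% against 2.25%, and 814 of the 1523 cells of ICI 1 belonged to this class. Subsets by depth were chosen after the values were seen.

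Cluster 5 weighs on these sums, since it is rich in nuclear OXPHOS transcripts and its size differed between libraries. It held 4.14%, 1.48%, 2.15% and 10.9% of cells in ICI 1 to 4 and 11.3% in isotype. Its cells carried 16.8%, 5.77%, 6.12% and 39.7% of all nuclear OXPHOS UMIs over ICI 1 to 4, against 33.6% for isotype. By this measure the ICI 4 value was the nearest to isotype. ICI 4 set against isotype alone differed by -0.201 points over all cells.

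Gene by gene, no member passed the test for treatment over all cells. In edgeR's quasi-likelihood test with Benjamini-Hochberg adjustment, 0 of 77 nuclear and 0 of 13 mitochondrial members tested were called (adjusted p of 0.817 or more), where 0% of 12659 genes were called. No member had an unadjusted p under 0.05 (4.08% of all genes did), and DESeq2 called 0 members and 38 genes in all. Without ICI 4, 37 of 77 nuclear members and 1 mitochondrial member had an unadjusted p under 0.05 in edgeR, against 26.1% of all genes, and 210 genes but no member passed the adjusted threshold. With a single isotype library, its spread was taken to equal that of the ICI group, so these p-values measure only the spread between ICI libraries, which may be technical. The signs are given as description: 74 of 77 nuclear members had a negative log2 fold change (ICI over isotype), with a median of -0.44, against 48.9% of all genes tested and a median of 0.02. All 4 ICI libraries lay below isotype for 56 of 77 nuclear members, against 19.1% of all genes, and above it for 2 of 77, against 27.3%.

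The counts were alike over the complexes. In complex I, 37 of 38 tested nuclear members had a negative fold (median -0.46) and 26 lay below isotype in every ICI library. In complex III it was 8 of 8 (median -0.39) with 5, in complex IV 12 of 14 (median -0.45) with 11, and in complex V 17 of 17 (median -0.40) with 14. ICI 4 was the highest ICI library for 59 of the 77 genes (31% of all genes) and ICI 1 the lowest for 42 (17% of all genes). ICI 4 taken alone was below isotype for 65 of the 77, against 45.7% of all genes.

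**Figure D2:**
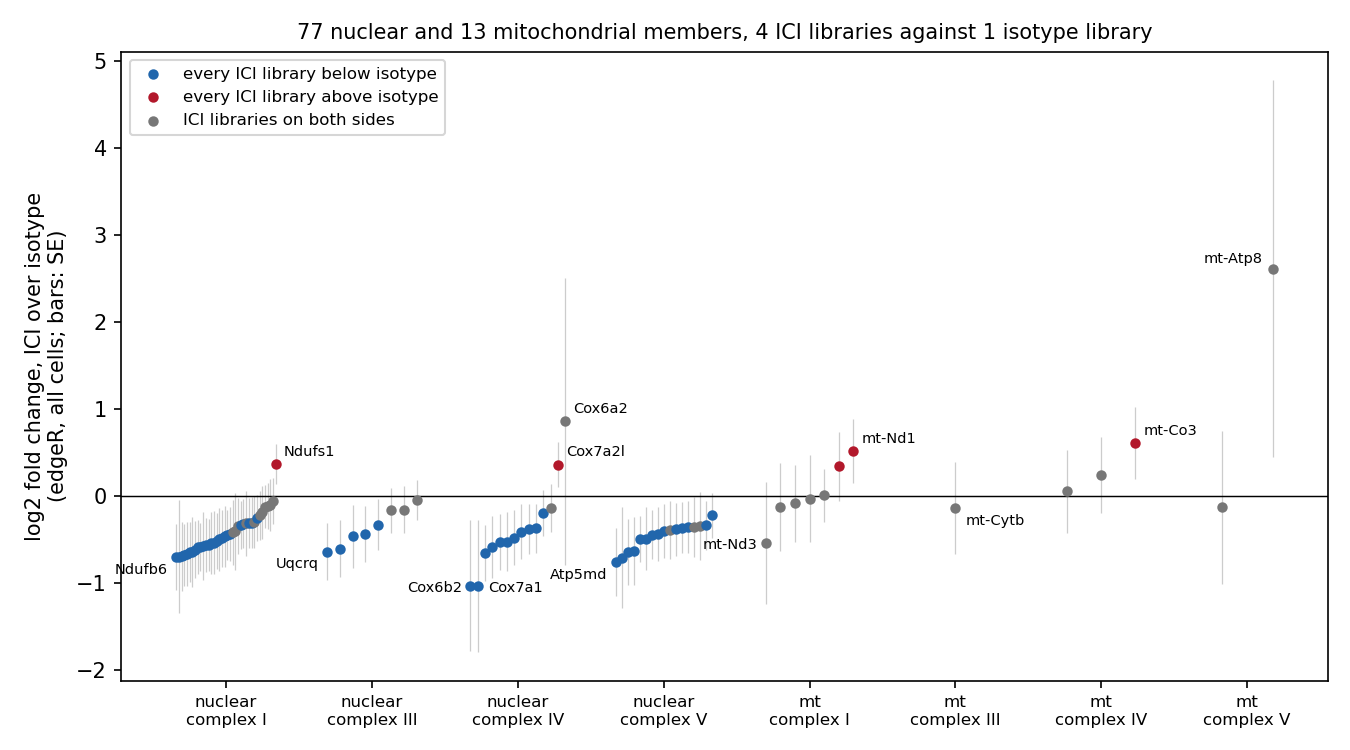
Log2 fold change (ICI over isotype, edgeR, sums over all cells) of 77 nuclear and 13 mitochondrial members by complex; bars are standard errors and colours show on which side of isotype the 4 ICI libraries lay. Nuclear members sit mostly below 0 (74 of 77), with Ndufs1 and Cox7a2l above isotype in every ICI library, and mitochondrial members lie on both sides.

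Among complex I genes, Ndufb6, an accessory subunit of the membrane arm, had 121, 111, 117 and 180 CPM in ICI 1 to 4 and 203 CPM in isotype. ICI 1 to 3 lay close together, ICI 4 stood between them and isotype, and the log2 fold change was -0.71 (SE 0.38). Ndufa4, long listed under complex I and since assigned to complex IV, had 413, 386, 454 and 462 CPM against 508 CPM, every ICI library below isotype (log2 fold change -0.34, SE 0.28). Ndufa3, another membrane-arm accessory subunit, had 209, 348, 420 and 349 CPM against 414 CPM. Here ICI 3 reached isotype and ICI 1 was the low library. Ndufa13, an accessory subunit that also goes by the name GRIM-19, spanned isotype as well, with 320, 370, 411 and 356 CPM against 398 CPM. Ndufab1, the mitochondrial acyl carrier protein that sits in complex I, had 144, 118, 110 and 176 CPM against 188 CPM, with no overlap.

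Ndufs1, the large iron-sulfur subunit of the arm that oxidises NADH, went the other way from most of complex I. It had 57.8, 52.4, 47.3 and 42.9 CPM in ICI 1 to 4 and 36.2 CPM in isotype (log2 fold change 0.36, SE 0.23). Every ICI library lay above isotype, and the gap to ICI 4 was the smallest. Ndufa4l2, a relative of Ndufa4 known from cells short of oxygen, was almost absent, with 14 UMIs in 9 cells. It had 7 UMIs in ICI 4, 7 in isotype and 0 in ICI 1 to 3, where 0 counts allow up to 0.677, 0.778 and 0.685 CPM, while isotype had 0.861 CPM. The isotype value is close to these limits, so a difference was hardly detectable at this depth. Of its UMIs 13 lay in cluster 6, and 7 of its 9 cells (77.8%) also held Dcn, a fibroblast gene, found in 0.789% of other cells. Median depth was 10923 UMIs in those 9 cells and 3615 in the others.

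For complex III, which passes electrons from ubiquinol to cytochrome c, the small subunit gene Uqcrq had 327, 301, 339 and 429 CPM in ICI 1 to 4 and 512 CPM in isotype (log2 fold change -0.64, SE 0.33). Uqcr10, another small subunit, had 185, 199, 213 and 284 CPM against 287 CPM. All ICI libraries lay below isotype for both genes, although for Uqcr10 ICI 4 was nearly level with it. Uqcrh, the hinge protein that binds cytochrome c1, had 534, 537, 603 and 600 CPM against 596 CPM and overlapped. Of the core proteins, Uqcrc1 had 150, 135, 132 and 174 CPM against 175 CPM and Uqcrc2 had 138, 147, 128 and 132 CPM against 132 CPM. Uqcrc2 was the complex III gene with a fold nearest 0 (-0.05, SE 0.23), and its sign turned in cells with at least 2000 UMIs (0.02).

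In complex IV, cytochrome c oxidase, several ubiquitous isoforms lay below isotype. Cox4i1, the common form of the regulatory subunit 4, had 698, 732, 750 and 873 CPM in ICI 1 to 4 and 931 CPM in isotype (log2 fold change -0.38, SE 0.29). Cox8a had 651, 717, 813 and 890 CPM against 961 CPM, and Cox7c, another small subunit, had 434, 515, 580 and 601 CPM against 723 CPM. Cox7a2 and Cox6a1, the forms found outside striated muscle, had 289, 291, 306 and 392 CPM against 475 CPM and 260, 265, 283 and 387 CPM against 423 CPM. ICI 4 was the highest and ICI 1 the lowest ICI library for each of these 5 genes. Cox6b1, which joins 2 units of the enzyme, had 345, 376, 399 and 421 CPM against 468 CPM.

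Cox7a2l departed from its family. Its product, also called SCAF1, does not belong to the plain enzyme but links complex III with complex IV in supercomplexes. It had 238, 260, 263 and 241 CPM in ICI 1 to 4 and 183 CPM in isotype, so every ICI library was above isotype, with a log2 fold change of 0.36 (SE 0.26). Every alternative run kept this sign, with values from 0.30 to 0.49. Cox7a2l (chromosome 17, 83501918 to 83517330, minus strand, GENCODE vM21 on GRCm38) and Ndufs1 were the only nuclear members above isotype in all 4 ICI libraries.

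Tissue-restricted isoforms of complex IV were rare in these cells. Cox6a2, the heart and muscle form of subunit 6a, had 128 UMIs in 24 cells, and 117 of these UMIs (91.4%) lay in 14 cells of cluster 15, which is led by Slpi, Mzb1 and Plac8. Of the 24 cells 14 (58.3%) also held Siglech, a marker of plasmacytoid dendritic cells, against 1.97% of the other 10251 cells, at median depths of 8190.5 and 3613 UMIs. The libraries had 43, 34, 19 and 9 Cox6a2 UMIs in ICI 1 to 4 and 23 in isotype. Spread per library was thus wide (9.70, 8.81, 4.34 and 0.279 CPM against 2.83 CPM, log2 fold change 0.85, SE 1.65), and 13.3% of all UMIs came from 1 cell. In cluster 15 it was found in 3 of 11, 3 of 4, 3 of 5 and 1 of 82 cells of ICI 1 to 4 and in 4 of 14 cells of isotype.

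Cox7a1, the muscle form of subunit 7a, had 154 UMIs in 140 cells, 53.9% of them in cycling-like cluster 5. It had 1.35, 1.56, 2.51 and 3.003 CPM in ICI 1 to 4 against 4.18 CPM in isotype (log2 fold change -1.04, SE 0.76). Cox6b2, known as the testis form of subunit 6b, had 416 UMIs in 340 cells, 43.3% in cluster 5, with 3.16, 4.15, 2.97 and 9.10 CPM against 9.72 CPM (log2 fold change -1.04, SE 0.75). Cells with a UMI of either gene often held Dntt, a gene of immature lymphocytes: 65.0% for Cox7a1 and 63.2% for Cox6b2, against 13.8% and 12.8% of the cells without one. Those cells were deep, with medians of 15609.5 and 11857.5 UMIs against 3592 and 3561. Dntt was about as frequent in cells with the other rare isoforms Cox6a2 (62.5%, against 14.4% of cells without it) and Ndufa4l2 (66.7%, against 14.5%). Cox4i2, the lung form of subunit 4, was seen in 2 cells, and Cox8b, a muscle form of subunit 8, in 1 cell.

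In complex V, the 3 genes that encode the same c-ring subunit, Atp5g1, Atp5g2 and Atp5g3, did not behave identically. Atp5g3 had 677, 486, 570 and 852 CPM in ICI 1 to 4 against 943 CPM in isotype (log2 fold change -0.64, SE 0.39) and Atp5g1 had 255, 258, 260 and 292 CPM against 352 CPM (log2 fold change -0.50, SE 0.27). Atp5g2 had 600, 539, 594 and 779 CPM against 774 CPM, with ICI 4 just above isotype. Atp5e, the epsilon subunit of the catalytic head, had 728, 783, 882 and 923 CPM against 1002 CPM with no overlap. The largest negative fold of complex V was that of Atp5md, a small subunit that joins ATP synthase dimers: 235, 302, 339 and 410 CPM against 515 CPM (log2 fold change -0.76, SE 0.39). Atp5k, subunit e of the same dimer contact, had 82.1, 193, 237 and 201 CPM against 276 CPM, with ICI 1 well under the other 3 ICI libraries.

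The low Atp5k and Ndufa3 values of ICI 1 belong to a wider difference between ICI libraries. Set against ICI 2 and ICI 3, the log2 ratio of ICI 1 was -1.60 for Ndufb1-ps (80.6 CPM against 219 and 274 CPM), -1.38 for Atp5k and -0.87 for Ndufa3. Across 74 nuclear members with at least 2000 UMIs this ratio was related to transcript length (Pearson r 0.37, Spearman rho 0.42). Across 4275 other genes of that depth the values were 0.28 and 0.38. The ratio of the ICI mean to isotype was related to length as well, with r 0.37 and rho 0.31 in members and 0.16 and 0.19 in 4282 other genes, and that of ICI 4 to isotype with 0.47 and 0.43 against 0.18 and 0.24. The part of transcript length in the nuclear difference was not tested. These correlations are over genes of the same libraries, which are not independent replicates. The median log2 ratio of ICI 1 to ICI 2 and ICI 3 was -0.18 in the shortest group of members (321.5 to 586 bases). It was -0.07 in the middle group (595 to 908 bases), which holds Ndufb1-ps at 861 bases, and 0.01 in the longest (931 to 2675.5 bases). Single values in the shortest group ran from -1.38 to 0.10, so short members lay on both sides of 0.

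Promoter sequences, which the naming rule did not use, were searched for short motif strings. RefSeq promoters (GRCm38.p6, 250 bases before to 50 after the start) were matched for 64 of 80 nuclear members and cover 27025 genes in all. Strings were searched on both strands: GCATGCGC, a core of the site of nuclear respiratory factor 1 (NRF1), CCGGAAG, the ETS core bound by GABP, AAGATGG, a core of the YY1 site, and the CCAAT and TATAAA boxes. The NRF1 core can match both strands at nearly the same place, and such matches overlap. The windows of 4 members are printed up to the base before the RefSeq start, 5' to 3' on the gene's strand, with the GCATGCGC and CCGGAAG strings of either strand in capitals. Ndufa11 and Cox6a1 are shown for overlapping NRF1 cores on both strands, Atp5e for an ETS core, and Cox7a2l as the gene of this family above isotype in every ICI library.
Ndufa11, chr17:56717512-56717761, plus strand: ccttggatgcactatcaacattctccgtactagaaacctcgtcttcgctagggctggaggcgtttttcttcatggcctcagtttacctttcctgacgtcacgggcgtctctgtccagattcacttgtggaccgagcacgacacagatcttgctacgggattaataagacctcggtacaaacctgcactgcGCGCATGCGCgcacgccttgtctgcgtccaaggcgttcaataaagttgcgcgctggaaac
Cox6a1, chr5:115348959-115349208, minus strand: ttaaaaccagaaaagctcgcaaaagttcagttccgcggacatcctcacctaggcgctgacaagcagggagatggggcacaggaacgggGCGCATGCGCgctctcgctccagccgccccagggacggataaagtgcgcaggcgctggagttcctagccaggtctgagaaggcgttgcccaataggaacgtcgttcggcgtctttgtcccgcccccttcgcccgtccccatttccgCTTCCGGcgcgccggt
Atp5e, chr2:174464102-174464351, minus strand: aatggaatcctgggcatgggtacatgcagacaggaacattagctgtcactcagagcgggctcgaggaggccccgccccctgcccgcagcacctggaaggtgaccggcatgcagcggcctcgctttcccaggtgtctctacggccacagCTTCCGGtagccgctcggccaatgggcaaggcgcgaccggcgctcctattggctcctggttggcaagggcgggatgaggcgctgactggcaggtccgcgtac
Cox7a2l, chr17:83514334-83514583, minus strand: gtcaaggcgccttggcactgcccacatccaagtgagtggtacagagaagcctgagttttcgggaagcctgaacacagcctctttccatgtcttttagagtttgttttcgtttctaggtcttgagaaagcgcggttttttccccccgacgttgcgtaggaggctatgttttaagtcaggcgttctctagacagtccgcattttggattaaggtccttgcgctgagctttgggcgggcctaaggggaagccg

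The NRF1 match begins 60 bases before the start in Ndufa11 and 162 in Cox6a1, the ETS core 16 bases before it in Cox6a1 and 102 in Atp5e. The window printed for Cox7a2l holds none of the capitalised strings. That window lies inside the gene as GENCODE places it (83501918 to 83517330, minus strand), before an internal RefSeq start. The bases before the GENCODE 5' end of Cox7a2l are not printed. Over the 300 bases of each window, GCATGCGC was present in 9 of 64 member promoters (14.1%) and in 3.05% of all promoters. CCGGAAG was present in 15 (23.4%) and 9.93%, and AAGATGG in 10 (15.6%) and 7.28%. At least 1 of GCATGCGC, CCGGAAG and AAGATGG was found in 29 members (45.3%) and in 18.6% of all genes. Most member promoters thus held none of them. All genes here means every gene with a RefSeq promoter, whether or not it is expressed in these cells, and promoters of like base content were not compared. CCAAT was as frequent in members (42.2%) as in all genes (41.1%), and TATAAA was found in 10.9% and 15.7%. Ndufa11, an accessory subunit of complex I, had 146, 152, 157 and 199 CPM in ICI 1 to 4 and 231 CPM in isotype, all ICI libraries below. Of the factors, the ICI libraries lay on both sides of isotype for 2: Nrf1 had 52.8, 32.1, 29.9 and 49.5 CPM against 48.0 CPM and Gabpa 33.9, 24.9, 30.4 and 26.6 CPM against 28.7 CPM. Yy1 had 114, 71.3, 71.9 and 149 CPM against 152 CPM, with every ICI library below isotype and ICI 4 nearly level with it.

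Some mitochondrial members lay above isotype in every ICI library. mt-Co3, a core subunit of complex IV, had 3705, 1917, 2070 and 2452 CPM in ICI 1 to 4 and 1550 CPM in isotype (log2 fold change 0.60, SE 0.42), every ICI library above isotype. Within the mitochondrial sum it made up 13.9%, 15.4%, 15.8% and 14.6% in ICI 1 to 4 and 10.8% in isotype, again with no overlap. mt-Nd1, a membrane subunit of complex I, had 1124, 780, 827 and 582 CPM against 538 CPM (log2 fold change 0.51, SE 0.37). mt-Nd2 had 985, 546, 572 and 570 CPM against 489 CPM (log2 fold change 0.34, SE 0.40). These 3 of 13 were the mitochondrial members above isotype in every ICI library, against 27.3% of all genes, and no mitochondrial member was below it in all 4.

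The other mitochondrial genes overlapped isotype. mt-Co1 and mt-Co2, the catalytic core of complex IV, had 5871, 2848, 2969 and 3423 CPM against 2966 CPM and 3813, 1696, 1835 and 2456 CPM against 2195 CPM. mt-Cytb, the only mitochondrial gene of complex III, had 2806, 1154, 1221 and 1949 CPM against 1824 CPM. Its part of the mitochondrial sum was 10.6%, 9.28%, 9.33% and 11.6% against 12.7%, below isotype in all 4. mt-Nd3 had 103, 99.0, 122 and 285 CPM against 212 CPM, with ICI 4 far above ICI 1 to 3 and also above isotype. ICI 1 was the highest ICI library for mt-Nd4 (713, 301, 321 and 429 CPM against 446 CPM), mt-Nd4l (1696, 780, 731 and 949 CPM against 982 CPM) and mt-Nd5 (538, 282, 289 and 445 CPM against 385 CPM). mt-Nd6, the one member read from the other strand, had 66.6, 52.6, 51.6 and 70.3 CPM against 56.3 CPM. Since mt-Nd6 and mt-Nd5 overlap on opposite strands and the counting settings are not given in the sources used here, their split is uncertain.

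The most unequal pair was mt-Atp8 and mt-Atp6, the membrane subunits of ATP synthase, whose reading frames overlap. mt-Atp8 had 24.4, 857, 833 and 86.3 CPM in ICI 1 to 4 and 68.6 CPM in isotype (log2 fold change 2.61, SE 2.17). mt-Atp6 had 5133, 1121, 1241 and 3144 CPM against 2698 CPM. ICI 2 and ICI 3 were thus high for mt-Atp8 and low for mt-Atp6, ICI 1 the reverse, and ICI 4 lay near isotype for both. Both are single coding exons on the plus strand of the mitochondrial genome (GRCm38, GENCODE vM21). The whole of mt-Atp8 and the first 120 bases of mt-Atp6 are shown because the 43 bases in capitals belong to both genes, and a read there fits either.
mt-Atp8, chrM:7766-7969: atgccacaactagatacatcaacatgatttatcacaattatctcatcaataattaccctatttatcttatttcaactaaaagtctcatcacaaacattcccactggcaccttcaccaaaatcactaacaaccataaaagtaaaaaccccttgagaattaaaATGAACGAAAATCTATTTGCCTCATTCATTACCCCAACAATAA
mt-Atp6, chrM:7927-8046: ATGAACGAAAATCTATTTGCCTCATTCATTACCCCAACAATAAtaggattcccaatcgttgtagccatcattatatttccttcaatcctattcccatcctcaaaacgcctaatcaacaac

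mt-Atp8 made up 0.473% of the UMIs of this pair in ICI 1, 43.3% in ICI 2, 40.2% in ICI 3, 2.67% in ICI 4 and 2.48% in isotype. The summed pair had 5157, 1979, 2074 and 3230 CPM against 2767 CPM. The split varied more between libraries than between clusters: over clusters with at least 20 cells it ranged from 0.132% to 0.804% in ICI 1 (13 clusters) and from 35.9% to 45.8% in ICI 2 (10 clusters). In ICI 3 it ranged from 37.1% to 44.2%, in ICI 4 from 1.38% to 3.18% and in isotype from 1.33% to 3.05%. The ranges of ICI 4 and isotype overlapped, those of ICI 2 and ICI 3 overlapped, and none of ICI 1 touched another library. The neighbouring pair mt-Nd4l and mt-Nd4, which shares 7 bases, showed no such split, with mt-Nd4l at 68.7% to 72.2% of the pair in all 5 libraries. Single values of mt-Atp8 and mt-Atp6 are therefore uncertain. The summed pair does not depend on which of the 2 genes a counted read was given to. Whether reads fitting both were counted at all is not given in the sources used here. The pair made up 19.4%, 15.9%, 15.9% and 19.2% of the mitochondrial sum in ICI 1 to 4 and 19.2% in isotype.

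**Figure D3:**
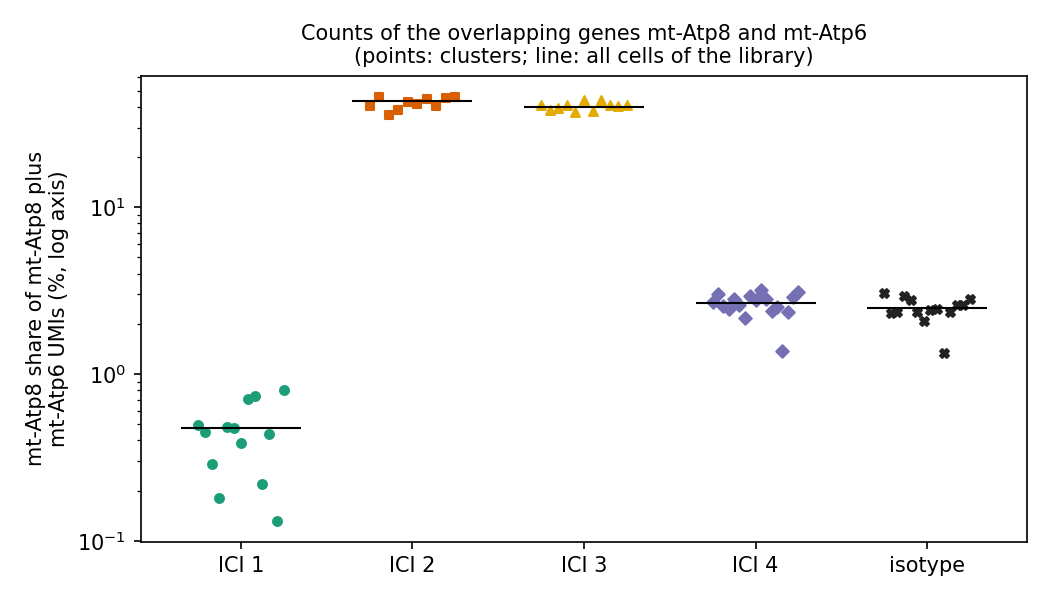
Share of mt-Atp8 in the UMIs of mt-Atp8 plus mt-Atp6 (percent, log axis) in each library; points are clusters with at least 20 cells and lines are all cells of the library. ICI 1 lies under 1%, ICI 2 and ICI 3 near 40%, and ICI 4 and isotype between 1.33% and 3.18%.

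Within clusters, the treatment comparison was made where isotype and at least 2 ICI libraries had 20 cells or more, which held for 12 clusters. edgeR called 0 nuclear and 0 mitochondrial members in each of them, and so did DESeq2, where edgeR called 0% of all genes in clusters 0, 3, 6, 7, 8 and 10. It called 0.0107% of genes in cluster 1, 0.0341% in cluster 2, 0.144% in cluster 4, 0.0316% in cluster 5, 0.14% in cluster 11 and 0.433% in cluster 12. At an unadjusted p under 0.05 there were 4 of 74 nuclear members in cluster 0 (3.75% of all genes), 1 of 74 in cluster 1 (6.05%), 4 of 73 in cluster 4 (5.26%) and 5 of 74 in cluster 6 (7.25%). There was 1 mitochondrial member in cluster 6, and none of either kind in the other 8. These counts are near or below the share of all genes. The nuclear median log2 fold change was negative in 12 of 12 clusters, from -0.08 in cluster 12 to -0.57 in regulatory T-like cluster 4, and below the median of all genes tested in each. The value of cluster 4, where isotype had 28 cells, was -0.34 once the top cell of every gene was dropped, and its 4 members at an unadjusted p under 0.05 were then 0.

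In the summed nuclear share of the same members, every ICI library present lay below isotype in 11 of the 12 clusters. The clusters were cut from the same libraries and share 1 isotype library, so they are not independent repeats of the comparison. In CD4 T-like cluster 0 it was 1.82%, 1.98%, 2.12% and 1.86% in ICI 1 to 4 against 2.21%. In effector T-like cluster 1, led by Gzmk, Ccl5 and Ifng, it was 1.41%, 2.01%, 2.11% and 2.04% against 2.29%. In regulatory T-like cluster 4 it was 1.39%, 1.90%, 1.88% and 1.83% against 2.38%, the widest ratio of ICI mean to isotype among the 12 (0.736). Macrophage-like cluster 7 had 1.83%, 1.40%, 1.53% and 1.98% against 2.15%. Here ICI 2 and ICI 3 were the low libraries, whereas in the T-like clusters 1 and 4 it was ICI 1. Ribosomal protein genes were also below isotype in every ICI library in several of these clusters. Their ratio of ICI mean to isotype was 0.750 in cluster 4, 0.736 in cluster 1 and 0.752 in natural killer-like cluster 8, beside 0.736, 0.827 and 0.866 for the nuclear OXPHOS members. In cluster 2 the ribosomal ratio was 1.09 and the nuclear OXPHOS ratio 0.816. In gamma-delta or type 17 T-like cluster 6 the gap was small: 2.13%, 2.06%, 2.24% and 1.87% against 2.25%.

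The exception was type 2 innate lymphoid-like cluster 10, with 2.20%, 1.99%, 2.16% and 1.62% against 1.92%, where ICI 1 to 3 lay above isotype and ICI 4 below. Dendritic-like cluster 16, with cells enough only in ICI 4 and isotype, had 2.31% (95% interval 2.27 to 2.34) and 2.04% (1.99 to 2.08), also higher in ICI. It has no replicate check.

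**Figure D4:**
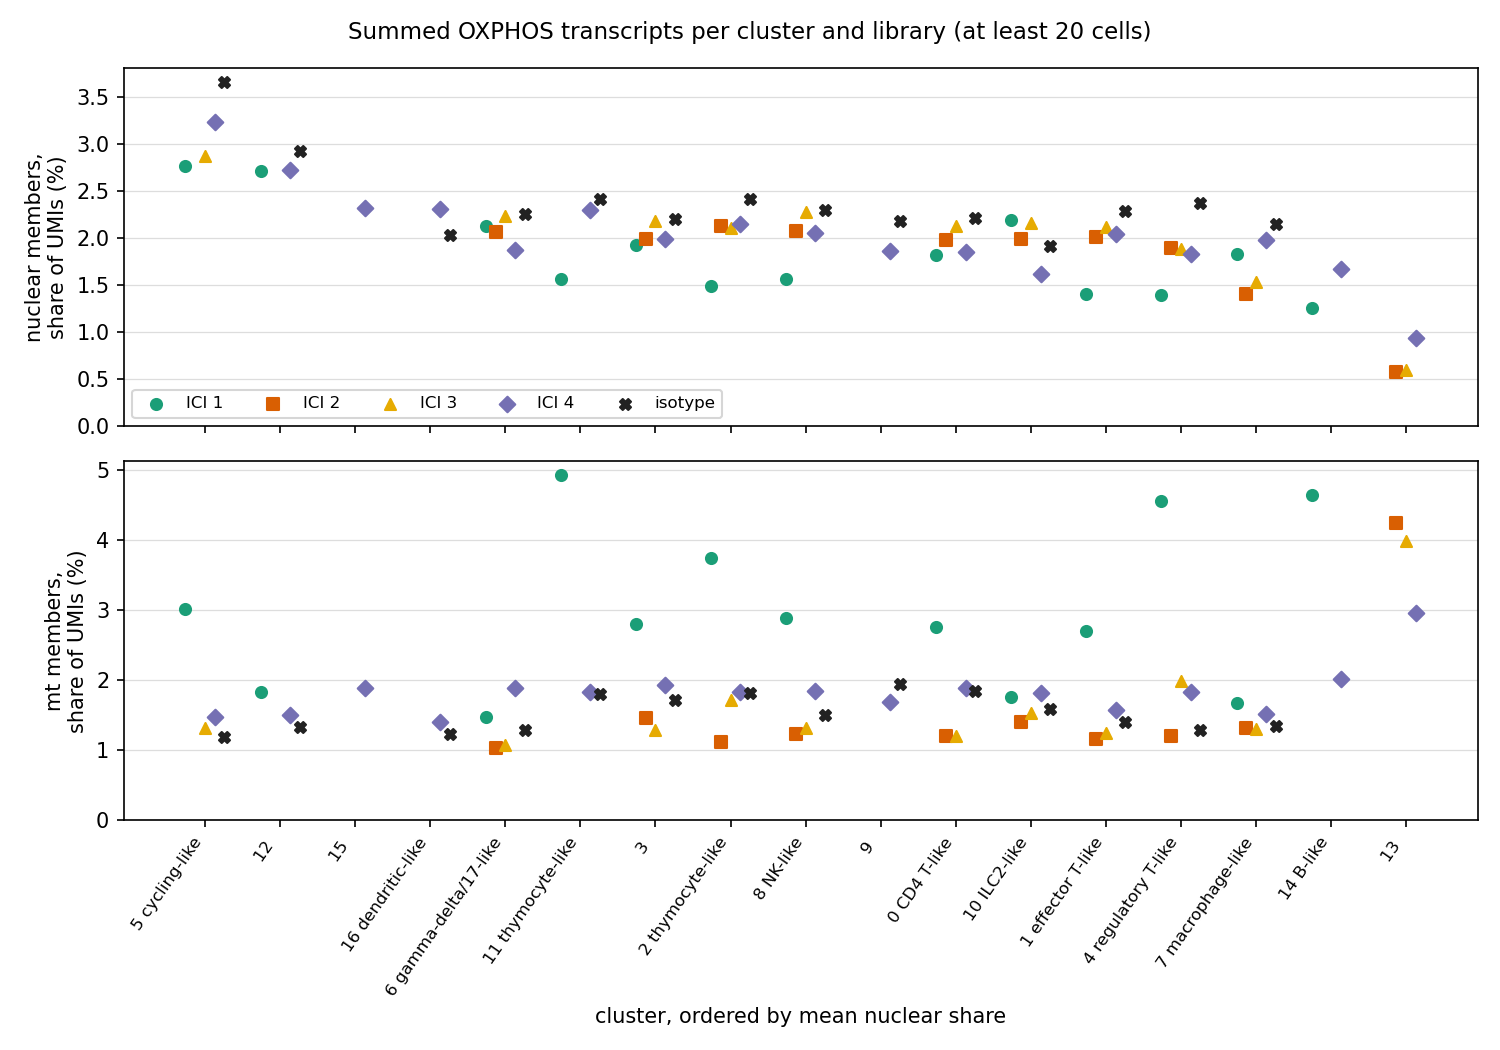
Share of UMIs (percent, linear axes from 0) of the nuclear members (top) and mitochondrial members (bottom) in each of 17 clusters and each library with at least 20 cells there. For nuclear members isotype (cross) is at the top of 11 of the 12 clusters compared, cluster 5 is highest and cluster 13 lowest, and for mitochondrial members ICI 1 (circle) is the highest library in most clusters.

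Counts of single nuclear members with every ICI library below isotype exceeded the share of all genes by most in cluster 5, with 58 of 76 against 16.7%, and in cluster 4, with 42 of 73 against 18.1%. They were 34 of 74 in cluster 0 (20.8% of all genes), 41 of 74 in cluster 1 (19%), 33 of 74 in thymocyte-like cluster 2 (14.9%) and 26 of 73 in cluster 3 (19.3%). Clusters 6, 7 and natural killer-like 8 had 25 of 74 (19.3%), 45 of 75 (23.6%) and 23 of 74 (12.3%). In clusters 11 and 12, where only 2 ICI libraries entered, the counts were 42 of 74 (28.4%) and 39 of 74 (34.4%). Cluster 10 had 5 of 74, near its share of all genes (7.01%).

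Negative folds were the rule for nuclear members in most clusters and less so in clusters 3, 10 and 12. They were 63 of 74 in cluster 0 (46.5% of all genes), 66 of 74 in cluster 1 (43.6%), 69 of 74 in cluster 2 (50.7%) and 53 of 73 in cluster 3 (47.3%). Clusters 4, 5 and 6 had 67 of 73 (45.1%), 74 of 76 (48.7%) and 64 of 74 (49.2%), and clusters 7 and 8 had 69 of 75 (48.9%) and 64 of 74 (46.8%). Clusters 10, 11 and 12 had 56 of 74 (45.9%), 62 of 74 (54.1%) and 46 of 74 (48.7%).

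In several clusters the medians lay nearer 0 in deeper cells. In cells with at least 2000 UMIs the nuclear median went from -0.23 to -0.13 in cluster 0, from -0.39 to -0.21 in cluster 1, from -0.48 to -0.10 in cluster 2 and from -0.39 to -0.20 in cluster 8. Positive folds in cluster 2 then numbered 21 of 74 in place of 5, with 2 ICI libraries left. Without ICI 1 the median was -0.22 in both cluster 1 and cluster 8.

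Nuclear members above isotype in every ICI library were few beside all genes. There were 4 of 74 in cluster 0 (26.3% of all genes), 3 of 74 in cluster 1 (37%), 1 of 74 in cluster 2 (12.5%), 4 of 73 in cluster 3 (18.6%) and 3 of 73 in cluster 4 (32.1%). Clusters 5 to 8 had 1 of 76 (23.5%), 8 of 74 (29.7%), 3 of 75 (19.6%) and 5 of 74 (24%). Clusters 10, 11 and 12 had 11 of 74 (28.2%), 9 of 74 (28.9%) and 17 of 74 (32.6%).

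Several genes had the same sign in all or nearly all clusters. How often other genes did so was not counted, and the clusters share the same libraries. Atp5md had a negative fold in 12 of 12 clusters and Uqcrq in 11, and both lay below isotype in every ICI library in 11. Cox7a2, Cox8a and Ndufa1, a small membrane-arm subunit of complex I, lay below it in every ICI library in 10. Of these, Cox8a and Ndufa1 had a negative fold in 12 clusters and Cox7a2 in 11. In cluster 4, Atp5md had 149, 229, 274 and 320 CPM in ICI 1 to 4 against 468 CPM in isotype (log2 fold change -1.07, SE 0.53). In macrophage-like cluster 7 it had 198, 206, 196 and 349 CPM against 394 CPM (log2 fold change -0.73, SE 0.44). No ICI library reached isotype in either cluster, whereas in cluster 10 ICI 4, at 504 CPM, passed the isotype value of 377 CPM.

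Cox7a2l had a positive fold in 10 of 12 clusters and lay above isotype in every ICI library in 8. It had 375, 350, 368 and 322 CPM in ICI 1 to 4 against 256 CPM in cluster 3, and 221, 224, 277 and 175 CPM against 154 CPM in cluster 7. Ndufs1 was above isotype in every ICI library in 6 of the 11 clusters where it was tested. Among mitochondrial members mt-Co3 and mt-Nd1 had positive folds in 12 of 12 clusters, with every ICI library above isotype in 10 and 8, and mt-Nd3 a negative fold in 12 of 12.

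The summed mitochondrial share was higher in the ICI mean than in isotype in 11 of 12 clusters, but every ICI library lay above isotype in only 3 (clusters 5, 11 and 12). Cluster 5 lacks ICI 2, and clusters 11 and 12 lack ICI 2 and ICI 3, the libraries low in mitochondrial share, and no cluster with all 4 ICI libraries showed this. Without ICI 1 it was higher in 4 of 10 clusters and without ICI 4 in 7 of 10, so this count rests on those libraries. In regulatory T-like cluster 4 the share was 4.55%, 1.21%, 1.98% and 1.83% in ICI 1 to 4 against 1.28%, and in thymocyte-like cluster 11 it was 4.93% in ICI 1 and 1.83% in ICI 4 against 1.80%. ICI 1 was high in both.

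Leaving out ICI 4 changed calls within clusters: 21 member results then passed, in clusters 6, 8 and 10. In cluster 6, 9 nuclear members were lower in ICI (Cox5b, Atp5e, Ndufc1, Ndufb2, Cox4i1, Ndufb9, Ndufa6, Ndufs8 and Atp5md), where 17.3% of 8195 genes were called. Ndufa6, an accessory subunit of complex I, had the lowest adjusted p of these in edgeR (log2 fold change -0.86, SE 0.23, adjusted p = 0.00242), and Cox4i1 a log2 fold change of -0.58 (SE 0.21, adjusted p = 0.0380). Of 7 mitochondrial members called there, mt-Cytb (-1.24), mt-Nd3 (-1.39), mt-Nd4, mt-Nd4l and mt-Atp6 were lower, and mt-Nd1 (0.64) and mt-Atp8 higher. In cluster 10, Atp5md (-0.85, SE 0.27, adjusted p = 0.0445 in edgeR) and 3 mitochondrial members were lower, where 8.89% of genes were called. In natural killer-like cluster 8 it was mt-Atp8 alone, at 5.02% of genes. None of these calls was made with ICI 4 in.

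Between clusters, cycling-like cluster 5 and cluster 12 stood out for nuclear members. Since the clusters were made from these cells' own genes, the differences are described without a test. Cycling-like cluster 5, led by Hist1h1a, Rrm2 and Pclaf and also rich in thymocyte genes, had the highest nuclear share: 2.77%, 2.88% and 3.23% in ICI 1, 3 and 4 and 3.66% in isotype, a mean of 3.13% ± 0.403 (SD, n = 4). Cluster 12, which carries 9 of 11 cycling genes, followed with 2.79% ± 0.118 (SD, n = 3). Dendritic-like, T-like, thymocyte-like, innate lymphoid-like and macrophage-like clusters lay between 2.17% and 1.78% and, given SDs of up to 0.461, neighbours in that order did not differ beyond their spread. B-like cluster 14 had 1.26% in ICI 1 and 1.67% in ICI 4.

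Cluster 13 had the lowest nuclear share, 0.575%, 0.602% and 0.937% in ICI 2 to 4, and the highest mean mitochondrial share, with 4.24%, 3.99% and 2.96%. The mitochondrial rank depends on which libraries are present: ICI 1 had too few cells in cluster 13 and reached 4.65% in cluster 14 and 4.93% in cluster 11. Cluster 14 was the highest without ICI 4, by the mean of per-cell shares, and in cells with at least 2000 UMIs. The cells of cluster 13 were shallow, with median depths of 763 to 914.5 UMIs per library. Among cells with at least 2000 UMIs the lowest nuclear share was that of cluster 14. Lowest in mitochondrial share were dendritic-like cluster 16, with 1.40% and 1.24% in ICI 4 and isotype, and cluster 6, with 1.35% ± 0.348 (SD, n = 5). Nuclear and mitochondrial shares were weakly and inversely related over the 17 clusters (Pearson r -0.66, Spearman rho -0.38), and less so without cluster 13 (-0.38 and -0.25). The clusters share the same libraries and depths.

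The difference between cycling-like cluster 5 and CD4 T-like cluster 0 ran through most nuclear members. Of 74 nuclear members with at least 2000 UMIs, 69 had a higher mean CPM in cluster 5, with a median ratio of 1.59, against 51.4% of 4393 other genes of that depth and a median of 1.02. By complex the counts were 35 of 38 for complex I (median 1.49), 7 of 8 for complex III (1.65), 10 of 11 for complex IV (1.63) and 17 of 17 for complex V (1.62). The 13 mitochondrial members had a median of 1.02, with 9 above 1. With cluster 13 left out, 62 of the 74 nuclear members were highest in cluster 5 (52) or 12 (10), and 0 of 13 mitochondrial ones were.

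**Figure D5:**
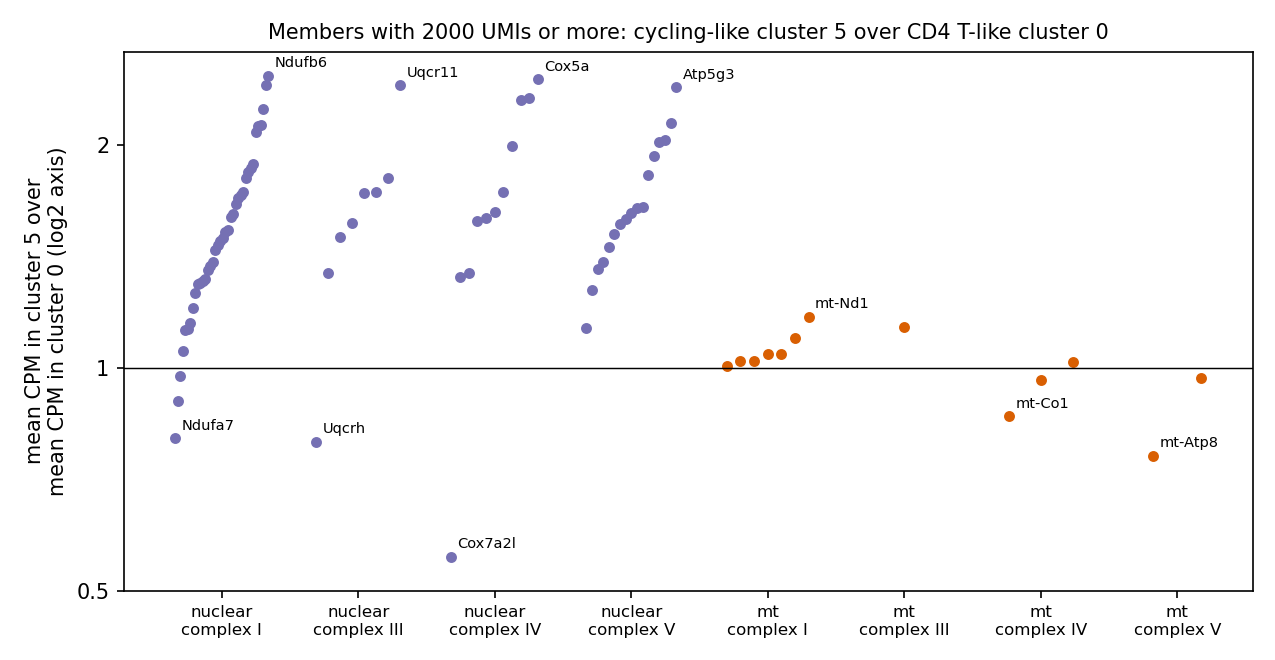
Ratio of mean CPM in cycling-like cluster 5 to that in CD4 T-like cluster 0 (log2 axis) for 74 nuclear and 13 mitochondrial members with at least 2000 UMIs, by complex. Nuclear members lie mostly above 1 (69 of 74), up to 2.48 for Ndufb6, with Cox7a2l lowest at 0.556, and mitochondrial members stay near 1.

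The 5 genes with the steepest profile over clusters belonged to complexes I, IV and V. Ndufb6 had 262, 201 and 296 CPM in ICI 1, 3 and 4 and 358 CPM in isotype in cluster 5, and 84.4, 102, 102 and 111 CPM in ICI 1 to 4 and 85.9 CPM in isotype in cluster 1, its lowest. Cox5a, a subunit on the matrix side of complex IV, averaged 849 ± 123 CPM (SD, n = 4) in cluster 5 and was lowest in thymocyte-like cluster 11, with 134 and 281 CPM in ICI 1 and 4 and 264 CPM in isotype. Atp5g3 averaged 1380 ± 260 CPM in cluster 5 against 479 CPM in macrophage-like cluster 7. Cox6a1 had 499, 550 and 600 CPM in ICI 1, 3 and 4 and 662 CPM in isotype in cluster 5, and was lowest in cluster 4. For these genes the libraries of the high and the low cluster did not overlap.

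Ndufa4 had a profile of its own. It was highest in cluster 12, at 697 ± 78.9 CPM (SD, n = 3), and lowest, apart from the shallow cluster 13, in type 2 innate lymphoid-like cluster 10, with 217, 140, 127 and 95.9 CPM in ICI 1 to 4 and 146 CPM in isotype. Natural killer-like cluster 8 had 465, 592, 699 and 530 CPM and 602 CPM. No library of cluster 10 reached any library of cluster 8, and the ratio of cluster 12 to cluster 10 was 4.80, the highest of the 74 nuclear members.

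The flattest profiles among nuclear members were those of Ndufa13 (highest to lowest cluster 1.38), Ndufa7 (1.43), Cox4i1 (1.43), Ndufs7, a core iron-sulfur subunit of complex I (1.45), and Ndufa2 (1.47). Cox4i1 ranged only from 694 CPM in cluster 4 to 995 CPM in cluster 5. Members lower in cluster 5 than in cluster 0 were Cox7a2l (ratio 0.556), Uqcrh (0.795), Ndufa7 (0.803), Ndufa13 (0.903) and Ndufa6 (0.974). Cox7a2l had 188, 144 and 209 CPM in ICI 1, 3 and 4 and 150 CPM in isotype in cluster 5, and 350, 313, 327 and 289 CPM in ICI 1 to 4 and 277 CPM in isotype in cluster 0, with no overlap. It was the one complex IV gene of the 11 nuclear ones at this depth that was lower in cluster 5.

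The nuclear share was also read within the authors' cell cycle calls. Nuclear members held 1.72%, 1.81%, 1.95% and 1.96% of UMIs in G1 cells of ICI 1 to 4 and 2.14% in isotype. In S phase cells it was 2.22%, 2.03%, 2.27% and 3.01% against 3.16%, and in G2/M cells 1.62%, 2.10%, 2.07% and 3.10% against 3.24%. Isotype was highest in each phase, and ICI 4 stood with isotype in the cycling phases but with ICI 3 in G1. These values are over all clusters, and a higher share in S or G2/M cells was not seen in each cluster alone. Cluster 5 had too few G1 cells to compare. In cluster 6, G1, S and G2/M cells held 2.09%, 2.03% and 2.05% in ICI 2 and 2.25%, 2.21% and 2.27% in ICI 3. For cluster 12 in ICI 4 they held 2.55%, 2.82% and 2.61%. G1 and S cells of cluster 8 held 1.99% and 2.23% in ICI 2 and 2.18% and 2.43% in ICI 3. In G1 cells every ICI library present lay below isotype in clusters 0, 1, 2, 3, 4, 8 and 11. It was not so in cluster 6, where ICI 3 held 2.25% against 2.22%, or in cluster 7, where ICI 4 held 1.96% against 1.95%. In cluster 10 ICI 1 to 3 lay above isotype, as did ICI 4 in cluster 16.

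Other genes of the pathway were taken from lists, in none of which edgeR called a gene. Complex II, which feeds electrons from succinate, had 2 of 4 negative folds: Sdhb, its iron-sulfur subunit, had 124, 135, 139 and 163 CPM in ICI 1 to 4 against 184 CPM in isotype, while Sdha, the flavoprotein, had 133, 138, 134 and 128 CPM against 115 CPM. Cycs, cytochrome c, had 251, 189, 220 and 286 CPM against 336 CPM, and Atpif1, the inhibitor of ATP synthase, 163, 146, 138 and 269 CPM against 316 CPM. Cycs, Atpif1 and Sdhb thus lay below isotype in all 4 ICI libraries and Sdha above it. Complex I assembly factors had 8 of 14 negative folds (median -0.05), with 0 below and 6 above isotype in every ICI library. Assembly factors of complexes III, IV and V had 19 of 25 negative folds (median -0.14), with 8 below and 4 above. Of all genes tested, 19.1% lay below and 27.3% above isotype in every ICI library.

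Citric acid cycle enzymes had 9 of 17 negative folds with a median of -0.01, with 7 genes above and 2 below isotype in every ICI library. Glycolysis genes had 7 of 17 negative folds with a median of 0.10, with 8 genes above and 0 below. The shares of all genes tested were 27.3% above and 19.1% below. Mitochondrial transcription and RNA handling genes, which read and process the mitochondrial members, had 7 of 15 negative folds (median 0.01). Mitochondrial carriers had 8 of 9 (median -0.21), including Slc25a5, an ADP/ATP carrier, with 438, 407, 436 and 562 CPM against 600 CPM. The negative medians of the subunit genes, -0.46 to -0.39 by complex, were further from 0 than the medians of these lists of several genes.

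Lists for other cells and for handling differed between the same libraries. Dissociation and stress genes had 17 of 18 negative folds and summed to 4972 to 7513 CPM in the ICI libraries against 10311 CPM in isotype. Of the 18, 13 lay below isotype in every ICI library, against 19.1% of all genes tested. Fibroblast and endothelial genes summed to 24.7 to 121 CPM against 333 CPM, with Dcn, Col1a1, Col1a2, Col3a1 and Cdh5 at 0 in ICI 1 to 3. Thyroid, parathyroid and epithelial genes had 5 of 6 negative folds, with Tg at 2.71 to 83.7 CPM against 214 CPM and Pth at 0 to 24.6 CPM against 732 CPM. Red cell and platelet genes summed to 2.97 to 20.5 CPM in ICI 1 to 3, 1874 CPM in ICI 4 and 1033 CPM in isotype. Their part in the nuclear difference was not tested.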

How the data were processed

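Raw UMI counts per gene and cell were deposited by the authors as 1 table of all libraries with cell annotations. Per the submitters' processing notes, Cell Ranger, Seurat and mm10 were used, and versions and counting settings are not given in the sources used here. The authors also deposited the percent of mitochondrial UMIs per cell (highest 25.0), cell cycle scores with phases, and clusters at resolution 0.4. Doublet treatment by the authors is not given in the sources used here. No doublet caller was run, and 540 cells with both T and myeloid UMIs were left out in an alternative.

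Counts were summed per library, and per library and cluster with at least 20 cells. Shares are percent of all UMIs. ICI was tested against isotype with edgeR 4.0.16 (TMM, filterByExpr with a minimum count of 10, quasi-likelihood, Benjamini-Hochberg over all genes, threshold 0.05), with DESeq2 1.42.0 as an alternative, in R 4.3.3 and Python 3.11.15. The procedure was checked on simulated data, with simulated fold changes larger than those of most members here. Its power for smaller changes was not checked. Intervals of the isotype shares over all cells are exact binomial 95% intervals, and those of shares in a cluster are Wilson 95% intervals. Limits for 0 counts use 3 counts. All of these cover counting error only. Named genes were all mitochondrial members, the 3 nuclear members with most and the 2 with fewest UMIs of each complex, members with isoforms or partners, those past the threshold, and those at 0 in a set of libraries. To these were added up to 5 members with the largest fold in each direction with every ICI library on 1 side. The 5 nuclear members with the largest and the 5 with the smallest cluster ratio were added as well. Ndufb1-ps, Ndufa11, Ndufa1, Ndufa6 and the other members called only without ICI 4 were named after their values were seen. Members and lists were chosen with earlier results of these data known. Gene positions are from GENCODE vM21 (GRCm38).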

Additional observations from a re-analysis of the deposited data

Results flagged for a closer look

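In 5 of 44 named members with at least 100 UMIs, 1 ICI library lay far from the other 3, judged by its gap to the nearest of them divided by the range of the 4. Chance gives such a gap in about 1 in 20 groups, and none of the 10 summed shares examined had one. ICI 4 was the high library for Atp5g1 (292 CPM against 255 to 260 CPM, gap over range 0.872), for Cox7a2 (392 CPM against 289 to 306 CPM, 0.840) and for Ndufb6 (180 CPM against 111 to 121 CPM, 0.847). It was also the high library for mt-Nd3 (285 CPM against 99.0 to 122 CPM, 0.876). ICI 1 was the high library for mt-Nd2 (985 CPM against 546 to 572 CPM, 0.941).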

How the results depend on the processing

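No paired analysis was possible because the groups share only 1 replicate number. No alternative gave a call for a member over all cells. The nuclear share of UMIs, over all clusters, lay lower in the ICI mean than in isotype under every alternative run. The difference was -0.658 to -0.472 percentage points when 1 ICI library was left out, and -0.201 points for ICI 4 alone. The mitochondrial difference ran from -0.0291 (without ICI 1) to 0.442 points when 1 ICI library was left out, and was 0.540 points with the mean of per-cell shares. The nuclear share was higher in mean ICI in 1 of 12 clusters, and in 0 both with the mean of per-cell shares and with mt-, Rpl and Rps genes removed. The mitochondrial share was higher in 11 of 12 clusters, in 5 of 11 with cells of at least 2000 UMIs (chosen after seeing the data), in 5 of 7 with at least 50 cells, and in 4 to 12 when 1 ICI library was left out. The gap between highest and lowest cluster was 2.43 points for nuclear members (1.58 with cells of at least 2000 UMIs, 3.16 with mt-, Rpl and Rps genes removed). For mitochondrial members it was 2.41 points (0.761 with cells of at least 2000 UMIs, 2.16 to 3.43 when 1 ICI library was left out). Member results called within clusters went from 0 to 21, the latter without ICI 4. The causes were not tested. Depth limits the rare isoforms and the clusters of few cells.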
